A study of Mus musculus with 16 samples.

Results

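The epithelium of the parotid gland was compared with the epithelium of the submandibular gland, using bulk RNA-seq of tissue from wild-type ICR mouse embryos at embryonic day 13. Of the 16 libraries of the study, 8 enter the comparison: 4 of parotid epithelium and 4 of submandibular epithelium, taken by their sample titles and described across all expressed genes. The other 8 are mesenchyme, the connective tissue around each gland, with 4 libraries a gland, and they share 1 model with the epithelia. No group carries a transgene, a deletion or a drug, and ICR is an outbred strain. The labels call the 4 libraries of a group independent biological replicates, so the p-values rest on that statement, and they do not say how many embryos went into a library. The design text speaks of glands kept in culture, whereas the titles and the protocol name only the harvest on that embryonic day, so the labels do not settle whether the tissue had been cultured. Sample sheet numbers were 9 to 12 for submandibular and 26 to 29 for parotid epithelium, so gland and place on the sheet cannot be told apart.

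Both glands arise as buds of the oral lining that grow into mesenchyme and branch. The end buds later give acini, which secrete saliva, and the stalks become ducts. The submandibular gland starts to form before the parotid gland, so at a shared embryonic day it is the more advanced of the pair, and gland and developmental stage cannot be told apart here. Adult parotid acini are serous, whereas the submandibular gland makes both serous and mucous secretions. At this stage few saliva genes are on: of the secretory product genes looked for, 10 could be tested and 29 had too few counts.

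The gene counts of an epithelial library ran from 19090077 to 27646844. Summed over 24 epithelial marker genes, the parotid libraries stood at 3470.0, 3650.0, 4050.0 and 3810.0 CPM (counts scaled to a shared library total, with TMM factors between libraries) in replicates 1 to 4 and the submandibular libraries at 3810.0, 4130.0, 4500.0 and 4440.0 CPM, against a summed mean of 34.5 CPM in the mesenchyme of the parotid and 56 CPM in that of the submandibular gland. Markers of other cells were present too. Schwann cell lineage markers summed to means of 279 and 244 CPM in parotid and submandibular epithelium, against 102 and 80.7 CPM in the mesenchyme. Of the 9 tested, 7 in parotid and 3 in submandibular epithelium reached a mean of 1 CPM, against 8 in either mesenchyme. In submandibular epithelium the sum thus rests on few genes. Which cells held this RNA was not tested. Smooth muscle and pericyte markers summed to 142 and 134 CPM in the epithelia, against 619 and 220 CPM in the mesenchyme. Macrophage and leukocyte markers summed to 37.7, 25.7, 38.5 and 41.9 CPM in parotid and 4.39, 11.1, 15.2 and 7.85 CPM in submandibular replicates 1 to 4, and 11 of 14 were higher in parotid epithelium. Mesenchymal identity markers summed to 513, 560.0, 832 and 771 against 301, 335, 721 and 604 CPM, which is 1.98% and 2.69% of the sum in the mesenchyme of the same gland. Erythroid markers were highest in submandibular replicate 1, at 741 CPM, and parotid replicate 4, at 502 CPM, against 10.1 to 154 CPM elsewhere. Xist, expressed from the inactive X chromosome, and 4 Y-linked genes divided each gland alike: Xist without Y-linked signal in parotid replicate 1 and submandibular replicate 3, both in parotid replicate 4 and submandibular replicate 1, and mainly Y-linked expression in the other 2 libraries of each gland. In bulk tissue, fewer cells of a type and less RNA per cell cannot be told apart.

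The glands differed widely in their epithelium. The first principal component of the 8 libraries held 47.1% of the variance and put the 4 parotid libraries on one side (-56.91 to -42.4) and the 4 submandibular ones on the other (40.22 to 62.26). The next held 12% and set submandibular replicate 3 apart, at 57.67 against -24.02 to 14.45 for the other 7 libraries. edgeR's quasi-likelihood test called 3801 of 18191 genes at an adjusted p under 0.05, 20.9% of those tested. Of these 2033 (11.2% of tested genes) were higher and 1768 (9.72%) lower in parotid epithelium, a division of 53.5% higher. Without submandibular replicate 1 the numbers were 1339 and 1113. At 2-fold or more 704 (3.87%) were higher and 848 (4.66%) lower. The libraries of the glands did not overlap for 570 of the 704 and 747 of the 848, beside 3761 of all 18191 genes.

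**Figure D1:**
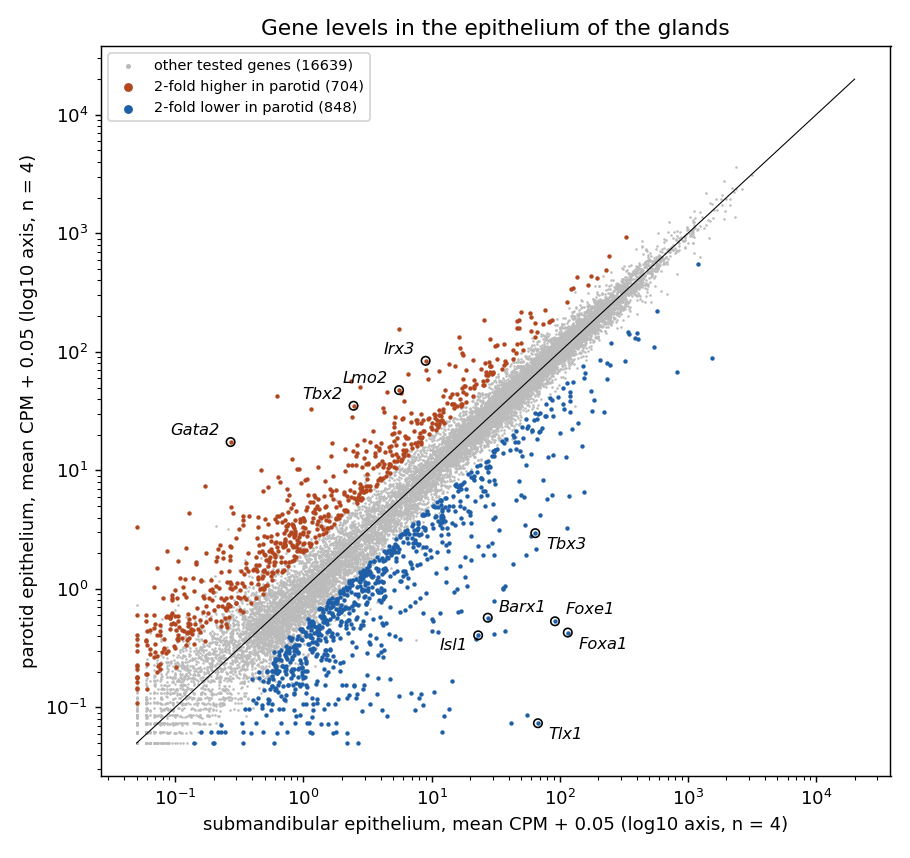
Mean CPM of each of the 18191 tested genes in submandibular epithelium (x axis) and parotid epithelium (y axis), both on log10 axes after adding 0.05 CPM; coloured points are the 704 genes higher and the 848 lower in parotid epithelium at 2-fold or more, grey points all others. The labelled transcription factor genes lie far from the diagonal, with Gata2, Irx3, Tbx2 and Lmo2 above it and Tlx1, Foxa1, Foxe1, Isl1, Barx1 and Tbx3 below.

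The kinds of gene on either side were unlike. Protein-coding genes were called higher more often than lower, 1970 against 1442 of 14658, whereas long non-coding RNAs were called higher in 38 and lower in 171 of 1468 and processed pseudogenes in 9 and 40 of 750. The kits used are not strand-specific, so reads of a gene and of a gene overlapping it on the other strand cannot be told apart. Of the 848 genes lower at 2-fold, 550 had a mean in submandibular epithelium at least as high as in submandibular mesenchyme. Of the 704 higher at 2-fold, 279 had a mean in parotid epithelium at least as high as in parotid mesenchyme. Over all 18191 tested genes 9824 met this rule, each judged in the gland toward which its epithelial difference pointed.

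Transcription factors that place tissues along the jaw and pharynx differed between the epithelia in both directions. Isl1 and Isl2, LIM homeobox factors, and Barx1, a homeobox factor of the first pharyngeal arch and stomach, were expressed in submandibular epithelium and close to absent in parotid epithelium. Isl1 stood at 0.466, 0.0938, 0.236 and 0.626 CPM in parotid replicates 1 to 4 and at 31.8, 14.7, 33.1 and 12.6 CPM in submandibular replicates 1 to 4 (log2 fold change -5.99, SE 0.49, adjusted p = 4.57e-07). Isl2 stood at 0.721, 1.41, 0.613 and 1.16 against 33.1, 33.5, 33.2 and 43.9 CPM in the same order (log2 fold change -5.20, SE 0.36, adjusted p = 5.45e-08). Every submandibular library was above every parotid library for both genes. Barx1 was at 0.424, 0.0469, 1.13 and 0.482 against 29.6, 20, 41.8 and 18.3 CPM (log2 fold change -5.70, SE 0.40, adjusted p = 2.41e-07). In mesenchyme Barx1 was far more abundant, at means of 193 CPM in the parotid and 477 CPM in the submandibular gland, but Isl2 was not, at 0.0813 and 0.273 CPM.

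A pair of factor genes had almost no reads in parotid epithelium, Tlx1 with 2 counts and Nkx2-3 with 4 counts in its 4 libraries together. Both belong to the NK-related homeobox family. Tlx1 was the steadier of them in submandibular epithelium, at 68.7, 62.4, 65.9 and 73.3 CPM, while Nkx2-3 ranged over 12.3, 8.54, 24.4 and 8.98 CPM.

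The Iroquois homeobox genes lay on the other side. They come as gene clusters, of which one holds Irx3 (chr8:91798525-91802067 in GRCm38) and Irx5 (chr8:92357625-92376286), and another Irx1 and Irx2. Irx3 stood at 66.5, 97.4, 96.9 and 75 CPM in parotid and 8.52, 6.33, 6.42 and 14.5 CPM in submandibular replicates 1 to 4 (log2 fold change 3.22, SE 0.36, adjusted p = 1.48e-05). Irx5 stood at 68, 79.3, 92.9 and 74.6 against 12.4, 14.4, 10.3 and 17 CPM (log2 fold change 2.54, SE 0.31, adjusted p = 3.53e-05). Irx2 was higher by less (log2 fold change 1.33, adjusted p = 0.000379), and Irx1, at 24.7 ± 5.63 against 17.9 ± 5.09 CPM (mean ± SD, n = 4), was not called. In mesenchyme the cluster differed between the glands in the same direction, with Irx5 at 5.48 CPM in the parotid and 0.206 CPM in the submandibular gland. Of 68 homeobox genes of jaw and pharynx tested, 19 were higher, 11 lower and 38 not called, with a median log2 fold change of 0.39 beside -0.00161 over all genes.

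Members of the T-box and forkhead families differed in both directions. Tbx2 and Tbx3 encode related repressors that many tissues express together, and here they went opposite ways. Tbx2 stood at 23.2, 37.4, 35.6 and 43.8 CPM in the parotid and 1.15, 1.29, 5.68 and 1.54 CPM in the submandibular libraries (log2 fold change 3.93, SE 0.39, adjusted p = 6.3e-06). Tbx3 stood at 2.76, 0.891, 4.01 and 3.95 against 51.2, 59.6, 53.6 and 93.3 CPM (log2 fold change -4.47, SE 0.31, adjusted p = 2.38e-07). In mesenchyme both were abundant and neither parted the glands as far, with means of 157 and 86.9 CPM for Tbx2 and 292 and 188 CPM for Tbx3. Of 12 T-box genes 3 were higher and 2 lower, and of 28 forkhead genes 4 were higher and 2 lower, where 11.2% and 9.72% of all genes were, so the forkhead share was near that of all genes. The forkhead genes that were lower were Foxa1, a factor that opens chromatin, at 0.0848, 0.281, 0.471 and 0.675 against 93.2, 118, 113 and 138 CPM, and Foxe1, at 0.483 ± 0.548 against 91.8 ± 38 CPM. Foxp2, a forkhead repressor, was higher in parotid epithelium, at 53, 64.9, 49.4 and 68.2 against 18.5, 12.4, 28.7 and 10.5 CPM (log2 fold change 1.76, SE 0.25, adjusted p = 0.000143).

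The promoter of Foxa1 is shown because no forkhead gene differed more, and because it was the only one of 17 RefSeq promoters, found for 15 of the 28 forkhead genes, that held the forkhead motif TGTTTAC on either strand. Of all 32851 mouse promoters in that table (250 bases before to 50 after a start site) 3.65% held it. Of the 15640 promoters of tested genes 2.57% did. The 250 bases before the start site lie at chr12:57546112-57546361 on the minus strand of GRCm38.p6, written 5′ to 3′ with the motif, here as its reverse complement, in capitals. A match describes the letters and does not show binding.
Foxa1: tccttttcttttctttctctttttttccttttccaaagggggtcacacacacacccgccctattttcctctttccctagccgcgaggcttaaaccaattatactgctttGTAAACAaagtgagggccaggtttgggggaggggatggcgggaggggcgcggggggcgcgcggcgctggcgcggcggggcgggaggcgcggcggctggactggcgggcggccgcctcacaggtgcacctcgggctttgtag

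Lmo2, Gata2 and Ets1 are factor genes best known from blood and vessels. Lmo2, which encodes a LIM-domain bridging protein of GATA factor complexes, was at 50.9, 48.3, 43.3 and 47.6 CPM in the parotid and 5.03, 6.21, 5.89 and 4.99 CPM in the submandibular libraries (log2 fold change 3.10, SE 0.15, adjusted p = 8.59e-10). Gata2 stood at 10.6, 24.1, 21.6 and 12.9 against 0.108, 0.0403, 0.477 and 0.257 CPM, and Ets1 at 63.5, 82.8, 75.9 and 79.8 against 21.5, 31.8, 19.2 and 42.4 CPM (log2 fold change 1.39, adjusted p = 0.000188). Of 16 endothelial markers 7 were higher and 1 lower in parotid epithelium, beside 11.2% and 9.72% of all genes. In each epithelium only 4 of the 16 reached a mean of 1 CPM, so some of these calls rest on few counts. Over the list they summed to 13.6, 18, 21.1 and 30.1 CPM in parotid and 14.8, 16.8, 13.2 and 19.5 CPM in submandibular replicates 1 to 4. The mean of Lmo2 was lower in mesenchyme than in parotid epithelium, at 17.6 CPM in the parotid and 25.8 CPM in the submandibular gland, and there it was lower in the parotid gland. The part of vessel cells in these differences was not tested.

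Some factors that many glands and skin share did not pass the test. Ehf, an ETS factor of simple epithelia, was at 437 ± 103 against 218 ± 60.3 CPM and not called, but limma-voom (adjusted p = 0.00473) and the fit of the 8 epithelial libraries alone (adjusted p = 0.0141) called it higher. Pax9, which acts in the oral lining and its organs, and Grhl2, a factor of epithelial identity, were not called either. Their log2 fold changes were 0.64 and 0.24, and the 8 epithelial libraries alone gave a call for Pax9 (adjusted p = 0.00953).

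**Figure D2:**
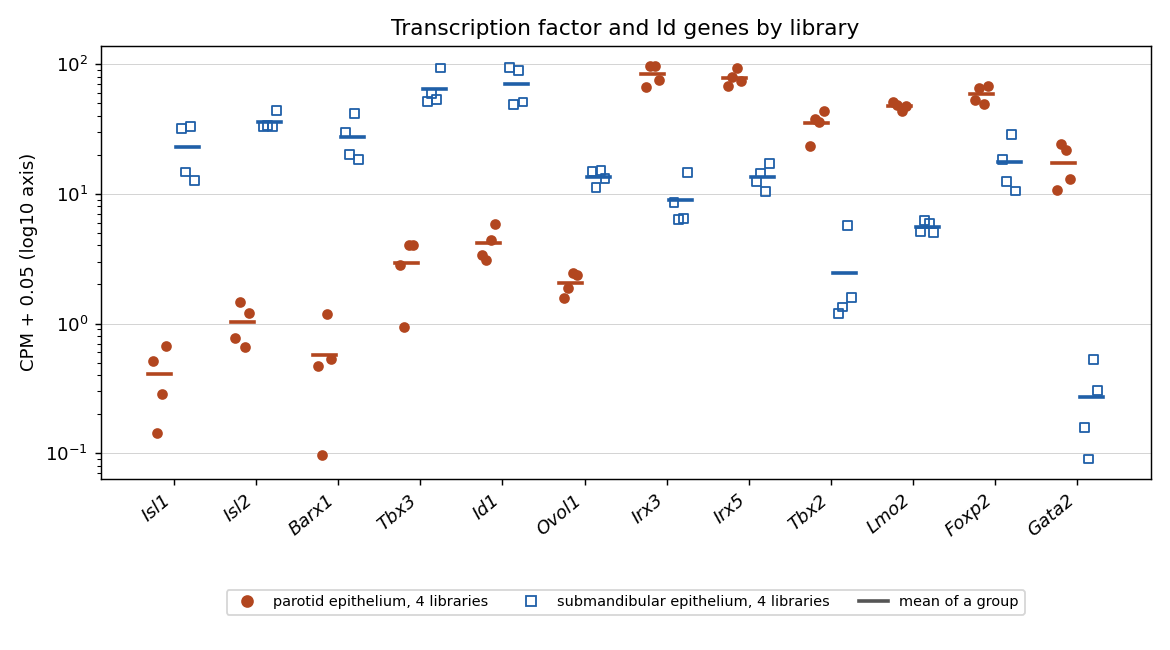
CPM of 12 transcription factor and Id genes in each epithelial library on a log10 axis after adding 0.05 CPM. Filled circles are the 4 parotid and open squares the 4 submandibular libraries, and a bar marks the mean of a group. For Isl1, Isl2, Barx1, Tbx3, Id1 and Ovol1 every square lies above every circle, and for Irx3, Irx5, Tbx2, Lmo2, Foxp2 and Gata2 every circle lies above every square.

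Many genes of stratified lining epithelium were lower in parotid epithelium. Keratins are the filament proteins of epithelia, those of simple epithelia being Krt8 and Krt18 and those of layered epithelia most of the others. Of 19 keratin genes 13 were lower, none was higher and 6 were not called, with a median log2 fold change of -2.55 beside -0.00161 over all genes. Krt6a, induced in layered epithelia that are stressed or renewing, stood at 0.297, 0.563, 0.377 and 0.337 CPM in parotid and 41.6, 27.6, 49.2 and 30.1 CPM in submandibular replicates 1 to 4 (log2 fold change -6.54, SE 0.43, adjusted p = 3.83e-08). Krt80 stood at 0.254, 0.516, 0.518 and 0.723 against 8.74, 9.31, 10.1 and 11.7 CPM (log2 fold change -4.30, SE 0.35, adjusted p = 4.26e-07). Krt7, a keratin of ducts, stood at 3.77, 3.47, 7.59 and 5.88 against 26.9, 26.7, 41.2 and 26.5 CPM (log2 fold change -2.55, SE 0.30, adjusted p = 2.08e-05). The groups did not overlap for any of these 3 genes. The simple keratins Krt8 and Krt18 were not called, at log2 fold changes of -0.50 and -0.10, and nor were the basal keratin Krt14 (0.03) and Krt17 (0.74).

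Genes of desmosomes, the junctions that anchor keratin filaments, and of the cornified envelope went with the keratins. Of 18 tested 11 were lower and none higher, all 11 by 2-fold or more, with a median of -1.48. Dsc2 and Dsc3 encode desmocollins, the adhesion proteins of the junction. Dsc2 was at 26.8, 21.5, 29 and 23.4 against 123, 136, 177 and 115 CPM (log2 fold change -2.45, SE 0.19, adjusted p = 2.55e-07). Dsc3 was at 2.33, 1.22, 1.13 and 1.4 against 10.3, 16.2, 26 and 13.9 CPM (log2 fold change -3.44, SE 0.44, adjusted p = 4.6e-05). Pkp1 and Dsp, which link desmosomes to filaments, fell by less certain amounts (log2 fold change -3.61, adjusted p = 0.00212 and log2 fold change -1.19, adjusted p = 0.0402 in turn), with submandibular replicate 3 the highest library for both. The call of Dsp was lost when any 1 of 6 libraries was left out, all but submandibular replicates 2 and 4 (adjusted p = 0.0536 to 0.134). Ppl, a plakin of the cornified envelope, stood at 2.37, 4.03, 3.72 and 5.35 against 26.7, 22.9, 45.6 and 26.1 CPM (log2 fold change -2.97, SE 0.32, adjusted p = 7.39e-06). The desmoglein Dsg2 and the junction protein plakoglobin, encoded by Jup, were not called, at -0.43 and 0.06.

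Annexins and factors of surface differentiation followed. Anxa1 and Anxa2, membrane-binding proteins abundant in lining epithelia, were among the 10 genes with the largest drop in mean CPM of those lower by 2-fold or more: Anxa1 stood at 221 ± 23.8 against 572 ± 56.9 CPM and Anxa2 at 109 ± 3.37 against 548 ± 217 CPM. Grhl3, a factor that barrier formation needs, was at 6.32, 13.6, 12.8 and 11.5 CPM in parotid and 47.4, 39.7, 100.5 and 32.2 CPM in submandibular replicates 1 to 4 (log2 fold change -2.31, SE 0.39, adjusted p = 0.000601). Ovol1, a repressor that acts as epidermal cells leave the basal layer, was at 1.53, 1.83, 2.4 and 2.31 against 14.7, 11.2, 15 and 13.1 CPM (log2 fold change -2.74, SE 0.35, adjusted p = 4.18e-05). Klf5, a factor of proliferating basal epithelium, was at 46.2 ± 10.1 against 119.7 ± 24.9 CPM (log2 fold change -1.37, adjusted p = 0.000247). Sfn, the 14-3-3 protein of stratified epithelia, was at 20.7, 20.2, 24.4 and 24.6 against 120.4, 91.6, 204 and 79.2 CPM (log2 fold change -2.46, adjusted p = 0.000671). Trp63, the factor that basal cells need, was not called, at 431 ± 23.8 against 439.7 ± 36.9 CPM. 

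**Figure D3:**
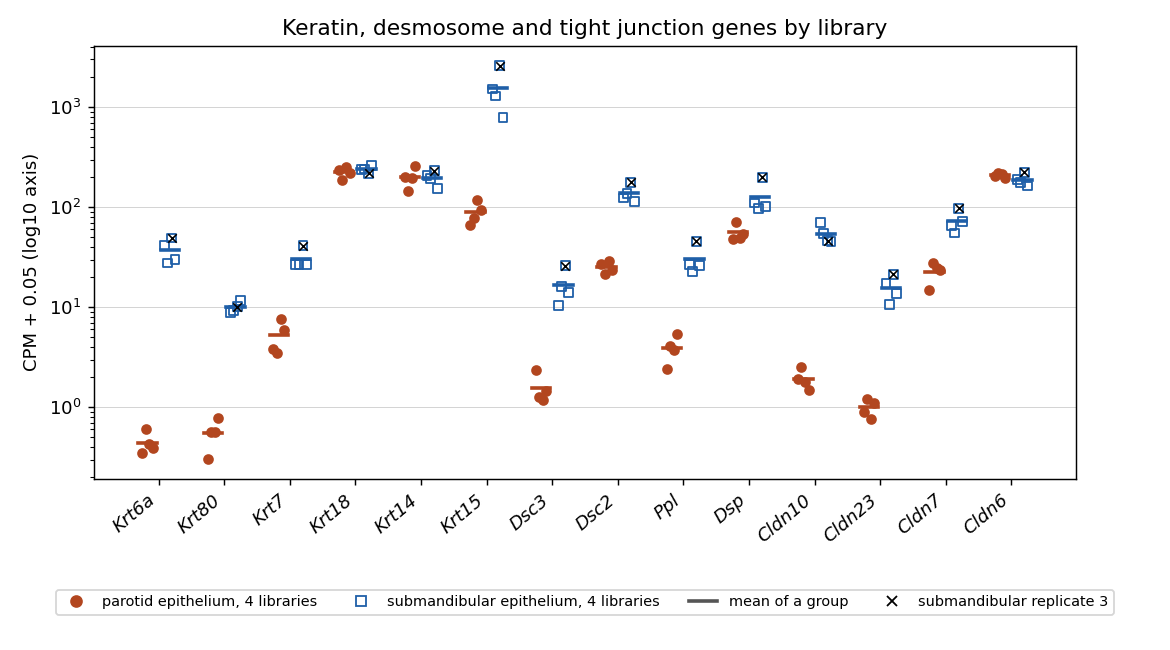
CPM of 14 genes of keratin filaments, desmosomes and tight junctions in each epithelial library on a log10 axis after adding 0.05 CPM; filled circles are the 4 parotid and open squares the 4 submandibular libraries, and bars mark group means. The squares lie above the circles for Krt6a, Krt80, Krt7, Dsc3, Ppl, Dsc2, Cldn10, Cldn23 and Cldn7, and the groups overlap for Krt14, Krt18 and Cldn6; submandibular replicate 3, marked with a cross, is among the highest for several.

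Submandibular replicate 3 was the highest of its group for many of these genes, such as Grhl3 (100.5 CPM against 32.2 to 47.4 CPM) and Dsc3. Without it 13 keratins and 9 desmosome and envelope genes were called lower.

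Tight junction genes were mixed. Of 29 tested 9 were lower and 2 higher, beside 9.72% lower and 11.2% higher of all genes, with a median of -0.14. The claudins that were lower seal or open the paracellular path in ducts and barriers. Cldn10, which forms paracellular ion pores, stood at 1.87, 2.49, 1.74 and 1.45 CPM in the parotid and 70.6, 54.8, 46.1 and 45.7 CPM in the submandibular libraries (log2 fold change -4.84, SE 0.24, adjusted p = 1.24e-09). Cldn23 stood at 0.848, 1.17, 0.707 and 1.06 against 17.3, 10.5, 21.3 and 13.7 CPM (log2 fold change -4.04, SE 0.36, adjusted p = 1.05e-06), and Cldn7 at 22.7 ± 5.47 against 72.8 ± 18 CPM (log2 fold change -1.68, adjusted p = 7.18e-05). Cldn1 was higher by less than 2-fold (log2 fold change 0.77, adjusted p = 0.0386), a call lost without any 1 of 7 libraries, all but parotid replicate 1 (adjusted p = 0.0516 to 0.109). Cldn6, a claudin of immature epithelia, was not called at 209 ± 10.4 against 188 ± 26.1 CPM.

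Membrane-bound serine proteases of airway and mouth lining were lower as well. Tmprss11a, Tmprss11b and Tmprss11d lie in 1 cluster on chromosome 5. Tmprss11b stood at 0, 0.751, 0.377 and 0.337 CPM in parotid and 41.7, 24.7, 35.7 and 21.3 CPM in submandibular replicates 1 to 4 (log2 fold change -6.40, SE 0.63, adjusted p = 4.25e-06). Tmprss11d stood at 0.466, 0.281, 0.566 and 0.241 against 11, 9.83, 12.6 and 6.97 CPM (log2 fold change -4.67, SE 0.47, adjusted p = 3.97e-06). Of 18 membrane serine protease and inhibitor genes 9 were lower and 1 higher, with a median of -0.78. The higher one was Tmprss2, at 31.2, 29.9, 59.7 and 43.8 against 11.8, 16.8, 11.6 and 15.5 CPM (log2 fold change 1.56, SE 0.24, adjusted p = 0.000436). St14 and Prss8, proteases that act together in most epithelia, were not called (0.28 and 0.01).

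Duct genes were lower in parotid epithelium and end bud genes were divided. Of 18 duct and basal progenitor genes 12 were lower and 1 higher, with a median of -1.97. It shares keratins and claudins with the lists above. Wfdc2, a protease inhibitor of duct cells, stood at 16.3, 15.2, 23 and 9.44 CPM in parotid and 263, 190.0, 84.8 and 63.3 CPM in submandibular replicates 1 to 4 (log2 fold change -3.23, SE 0.45, adjusted p = 0.000175). Sox2, a progenitor factor of taste, airway and salivary epithelium, was at 1.95, 2.16, 1.65 and 2.22 against 8.59, 7.21, 20.4 and 7.44 CPM (log2 fold change -2.45, SE 0.61, adjusted p = 0.01). Of 19 end bud genes 5 were higher, each by less than 2-fold, and 6 lower. Sox9, a factor of the distal buds, was at 615, 773, 773 and 687 against 350.3, 457, 451 and 646 CPM (log2 fold change 0.58, adjusted p = 0.0268), and Myc at 292, 368, 425 and 366 against 153, 195, 154 and 251 CPM (log2 fold change 0.94, adjusted p = 0.0024). The call of Sox9 was lost without parotid replicate 2 or 3 or submandibular replicate 1, 2 or 3 (adjusted p = 0.0548 to 0.083). The 5 higher end bud calls were 2 without parotid replicate 2, parotid replicate 3 or submandibular replicate 1, and 3 without submandibular replicate 2 or 3. Kit, a receptor of end bud progenitors, and its ligand Kitl were both lower. Kit stood at 38.9 ± 6.67 against 87.7 ± 20.2 CPM (log2 fold change -1.17, adjusted p = 0.000209) and Kitl at 42.8 ± 18.4 against 121 ± 23.2 CPM (log2 fold change -1.50, adjusted p = 0.00828).

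Among transport genes that ducts and acini later use, some were called in either direction. The water and glycerol channel gene Aqp3 stood at 1.1, 0.61, 1.37 and 0.916 CPM in the parotid and 40.6, 42.8, 49.2 and 16.3 CPM in the submandibular libraries (log2 fold change -5.21, SE 0.47, adjusted p = 1.48e-06). Gabrp, a subunit of a chloride-conducting receptor, stood at 0.424, 2.63, 1.41 and 1.88 against 54.6, 36.5, 37.4 and 43 CPM (log2 fold change -4.76, SE 0.81, adjusted p = 0.00171). Slc12a2, the cotransporter that loads chloride into secreting cells, was at 141 ± 22 against 346 ± 106 CPM (log2 fold change -1.29, adjusted p = 0.00123). The anion transporter gene Slc26a9 went the other way, at 49.7, 92.4, 67.1 and 59 against 24.3, 28.2, 17.7 and 43 CPM (log2 fold change 1.24, adjusted p = 0.00854). Of 42 ion and water transport genes 5 were higher and 9 lower, with a median of 0.00, where 11.2% of all genes were higher and 9.72% lower, so the share of higher members was near that of all genes. The 5 were 3 without parotid replicate 4 or submandibular replicate 1.

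WNT signalling acts through beta-catenin and the TCF and LEF factors, and its targets include several of its own inhibitors. Of 17 WNT response genes 8 were higher in parotid epithelium, 1, the inhibitor gene Dkk1, was lower and 8 were not called, with a median of 0.55. Tcf7, a TCF factor, stood at 20.3, 25.9, 29.5 and 31.5 CPM in parotid and 7.98, 8.38, 6.74 and 11.3 CPM in submandibular replicates 1 to 4 (log2 fold change 1.64, SE 0.23, adjusted p = 0.000112). Tnfrsf19, a receptor gene of the tumour necrosis factor family, stood at 352, 325, 348 and 348 against 112, 152, 83 and 165 CPM (log2 fold change 1.43, SE 0.34, adjusted p = 0.00895). Rnf43, a ligase that removes WNT receptors, was at 62 ± 11.1 against 32.8 ± 7.22 CPM (log2 fold change 0.92, adjusted p = 0.0115). Sp5 was the member that differed most (log2 fold change 4.60, adjusted p = 8.38e-06). Lef1 and Lgr5 were low and not called, at 2.47 ± 0.809 against 1.71 ± 0.98 and 1.78 ± 1.06 against 3.34 ± 2.25 CPM.

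The promoters of Sp5 and Tnfrsf19 are shown because among the 7 higher WNT response genes with an entry (10 RefSeq promoters) they were the ones with the TCF/LEF motif, CTTTGAA or CTTTGAT on either strand. Over all 13 WNT response genes with an entry (19 promoters) Dkk1, which was lower in parotid epithelium, held it too. Among all mouse promoters listed there 8.65% held the motif, and among the 15640 promoters of tested genes 6.17%. The 250 bases before each start site are written 5′ to 3′ on the strand of the gene, with the motif in capitals. That of Sp5 lies at chr2:70474673-70474922 on the plus strand and holds the motif as CTTTGAT. That of Tnfrsf19 lies at chr14:61037988-61038237 on the minus strand, before a start site within the GENCODE gene, and holds it as the reverse complement ATCAAAG.
Sp5: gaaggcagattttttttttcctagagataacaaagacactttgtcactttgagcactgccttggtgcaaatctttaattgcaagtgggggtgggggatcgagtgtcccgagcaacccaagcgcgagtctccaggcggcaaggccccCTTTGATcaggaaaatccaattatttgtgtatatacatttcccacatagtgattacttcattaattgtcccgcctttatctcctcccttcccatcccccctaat
Tnfrsf19: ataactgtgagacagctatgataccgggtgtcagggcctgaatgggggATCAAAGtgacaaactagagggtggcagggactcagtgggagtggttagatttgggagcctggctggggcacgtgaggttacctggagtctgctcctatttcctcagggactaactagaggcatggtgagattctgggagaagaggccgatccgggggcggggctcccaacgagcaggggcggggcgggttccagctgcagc

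Over wider sets the TCF/LEF motif stood in 7.37% of 651 promoters of genes at least 2-fold higher in parotid epithelium and in 7.84% of 638 promoters of genes at least 2-fold lower, and the forkhead motif in 1.69% and 3.45% of them. Among the promoters of all tested genes the shares were 6.17% and 2.57%. A motif of T-box factors was looked for as well. It stood in 4 promoters (0.614%) of the higher set and in 14 (2.19%) of the lower set. Among the promoters of all tested genes its share was 0.863%. Whether any of these shares differ from that of all tested genes was not tested. None of 7 promoters of the lower keratins held the TCF/LEF, the forkhead or the T-box motif.

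WNT ligands and modulators did not all move with the response genes. Wnt7b, a ligand of lung and skin epithelium, stood at 1.7, 2.16, 3.3 and 3.81 CPM in the parotid and 52.7, 40.1, 114 and 30.5 CPM in the submandibular libraries (log2 fold change -4.44, SE 0.45, adjusted p = 6.06e-06). Wnt4 was lower too (log2 fold change -1.19, adjusted p = 0.0378), a call lost without any 1 of 7 libraries, all but submandibular replicate 4 (adjusted p = 0.0569 to 0.122). Of 13 ligands 2 were higher and 3 lower, beside 11.2% and 9.72% of all genes. Kremen2, a receptor of the DKK inhibitors, stood at 160.0, 157, 226 and 192 against 37.6, 52.3, 43.9 and 59.8 CPM (log2 fold change 1.92, SE 0.31, adjusted p = 0.000546). Sostdc1, a secreted inhibitor of WNT and BMP signals, stood at 11.6, 13.4, 15.5 and 10.8 against 90.3, 70.8, 107 and 58.7 CPM (log2 fold change -2.67, SE 0.21, adjusted p = 2.55e-07). In mesenchyme Sostdc1 differed the opposite way, at means of 22.6 CPM in the parotid and 5.86 CPM in the submandibular gland (1.94 on the log2 scale, adjusted p = 2.3e-06), and the gland differences themselves differed between the layers (adjusted p = 2.19e-08).

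BMP signals are read out by the Id genes, whose products block bHLH factors. Id1 stood at 3.31, 3.05, 4.34 and 5.78 CPM in parotid and 93.7, 48.6, 89.4 and 51 CPM in submandibular replicates 1 to 4 (log2 fold change -4.10, SE 0.26, adjusted p = 3.83e-08). Id3 stood at 36.7, 33.9, 59.9 and 57.1 against 206, 135, 223 and 136 CPM (log2 fold change -1.90, SE 0.23, adjusted p = 3.28e-05). Among the ligands Bmp4 was lower, at 0.295 ± 0.389 against 3.25 ± 1.09 CPM, and Bmp2 higher, at 3.84 ± 0.504 against 0.454 ± 0.313 CPM, both at a low level, while the more abundant Bmp7 was not called at 206 ± 35.1 against 167 ± 28.6 CPM. The BMP antagonist gene Nog was higher, at 24, 24, 21.9 and 22.8 against 12.5, 7.05, 10 and 9.68 CPM (log2 fold change 1.24, adjusted p = 0.0159). Ltbp1, which stores latent TGF-beta in the matrix, was among the 10 genes with the largest rise in mean CPM of those higher by 2-fold or more, at 640.4 ± 127 against 241 ± 103 CPM. Of 49 BMP and TGF-beta genes 10 were higher and 5 lower, with a median of 0.12. Over all genes 11.2% were higher and 9.72% lower, so the share of lower members was near that of all genes.

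FGF signals through Fgfr2 drive salivary branching. Fgfr2 was not called, at 256 ± 34 against 328 ± 60.6 CPM, whereas Fgfr3 stood at 1.19, 1.31, 0.896 and 1.4 CPM in the parotid and 22, 14.4, 23.8 and 13 CPM in the submandibular libraries (log2 fold change -3.93, SE 0.26, adjusted p = 4.09e-08). The ligand genes Fgf9 and Fgf1 were lower (log2 fold change -1.17, adjusted p = 0.0137 and log2 fold change -1.11, adjusted p = 0.000287 in turn). Of 20 FGF response genes 5 were higher and none lower, beside 11.2% and 9.72% of all genes, with a median of 0.03. Phlda1 stood at 152, 169, 229.6 and 174 against 35.4, 48.7, 42.6 and 59.1 CPM (log2 fold change 1.96, SE 0.20, adjusted p = 4e-06), while the feedback genes Spry2 and Dusp6 were not called (0.03 and -0.17).

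Ligands of the EGF receptor differed in kind. Tgfa stood at 10.3, 12.9, 19.6 and 21.4 CPM in the parotid and 3.6, 2.9, 3.18 and 4.95 CPM in the submandibular libraries (log2 fold change 2.13, SE 0.51, adjusted p = 0.00794). Areg and Ereg, which lie side by side on chromosome 5, were near 0 in parotid epithelium and low in submandibular epithelium, at 0.106 ± 0.106 against 2.11 ± 0.523 and 0.0695 ± 0.0821 against 2.15 ± 0.93 CPM. In parotid mesenchyme Areg was at 14.3 CPM, against 0.0265 CPM in submandibular mesenchyme. The ectodysplasin receptor gene Edar, which signals to NF-kB in ectodermal organs, stood at 36.3, 33.2, 37.7 and 38 against 17, 17.3, 15.4 and 17.7 CPM (log2 fold change 1.11, SE 0.18, adjusted p = 0.000371). Ltb, which encodes lymphotoxin beta, stood at 46.5, 16.2, 38.5 and 33.4 against 2.84, 5.12, 2.23 and 6.42 CPM (log2 fold change 3.01, SE 0.40, adjusted p = 7e-05). The NF-kB subunit gene Relb was at 29 ± 4.43 against 11.3 ± 3.28 CPM (log2 fold change 1.35, adjusted p = 5.77e-05) and the NF-kB inhibitor gene Nfkbia at 226 ± 41.2 against 141 ± 34.8 CPM (log2 fold change 0.69, adjusted p = 0.00362). Of 26 genes of the EGF, neuregulin and EDA pathways 9 were higher and 5 lower. The 5 were 3 without parotid replicate 2, submandibular replicate 1 or submandibular replicate 3.

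Retinoic acid is made from retinol in a pair of oxidation steps and broken down by Cyp26 enzymes. Enzyme genes of both steps were called, those of the second step in both directions, and a degrading one was lower. Rdh10, of the first step, stood at 90.3, 83.2, 124 and 129.8 CPM in parotid and 11.9, 15.8, 15.3 and 23.8 CPM in submandibular replicates 1 to 4 (log2 fold change 2.67, SE 0.20, adjusted p = 2.46e-07). Aldh1a3, of the next step, stood at 26.4, 24.8, 27.9 and 26.8 against 6.54, 8.22, 6.37 and 9.28 CPM (log2 fold change 1.80, SE 0.26, adjusted p = 0.000115). Cyp26b1 stood at 5.13, 5.07, 2.59 and 1.59 against 15.5, 12.3, 9.97 and 10.7 CPM (log2 fold change -1.75, SE 0.28, adjusted p = 0.000379), and Aldh1a1, a further enzyme gene of the step of Aldh1a3, was lower, at 0.978 ± 0.307 against 6.34 ± 2.03 CPM. Of 20 retinoic acid genes 6 were higher and 3 lower, with a median of 0.22. In mesenchyme Rdh10 differed the other way, at 75.4 CPM in the parotid and 197 CPM in the submandibular gland.

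Genes of peptide signals and their receptors differed in both directions. Of 31 hormone and neuropeptide genes 6 were higher and 8 lower, beside 11.2% and 9.72% of all genes, with a median of -0.36. Among the lower was Adm, the gene of the vessel-widening peptide adrenomedullin, at 1.31, 0.375, 1.04 and 2.02 CPM in the parotid and 9.67, 5.56, 3.34 and 7.37 CPM in the submandibular replicates 1 to 4 (log2 fold change -2.45, SE 0.42, adjusted p = 0.000557). Edn3, the ligand of the endothelin receptor that neural crest cells carry, was at 15.4, 14.6, 14.8 and 15.6 CPM in the parotid and 2.88, 1.49, 2.39 and 1.54 CPM in the submandibular libraries (log2 fold change 2.87, SE 0.21, adjusted p = 1.86e-07). Pthlh, the parathyroid hormone-related peptide, was at 22.8, 21.6, 32.6 and 33.9 against 4.64, 6.45, 4.14 and 8.65 CPM (log2 fold change 2.21, adjusted p = 0.00571). Chrm1, a muscarinic receptor through which parasympathetic nerves act on salivary epithelium, was at 11.5, 17.8, 16.3 and 11.3 against 3.77, 6.05, 2.39 and 4.88 CPM (log2 fold change 1.73, adjusted p = 0.0102), while Chrm3 was low and not called at 1.08 ± 0.352 against 0.765 ± 0.493 CPM. Nrtn, a factor that parasympathetic neurons need, was at 67.3, 64.2, 92.1 and 79.7 against 34.2, 48.3, 37 and 42.7 CPM (log2 fold change 0.90, adjusted p = 0.000473). The leukaemia inhibitory factor receptor gene Lifr was at 199, 207, 248 and 217 against 47.4, 46.5, 44.4 and 61.8 CPM (log2 fold change 2.12, SE 0.14, adjusted p = 3.47e-08). Ptger3, a prostaglandin receptor gene, was at 10.2 ± 1.16 against 0.867 ± 0.441 CPM (log2 fold change 3.58, adjusted p = 3.54e-07). The sodium leak channel gene Nalcn and the calcium channel subunit gene Cacna2d3 were at 28.4 ± 4.94 against 2.34 ± 1.4 and 65.5 ± 8.72 against 6.48 ± 1.49 CPM.

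Basement membrane genes changed in both directions, 11 of 34 higher and 7 lower with a median of 0.13. Lama3 and Lamb3 encode laminin chains that anchor layered epithelia. Lama3 stood at 2.29, 2.02, 2.17 and 2.46 CPM in parotid and 19.3, 23.1, 35.1 and 15 CPM in submandibular replicates 1 to 4 (log2 fold change -3.37, SE 0.43, adjusted p = 4.1e-05). Lamb3 stood at 2.54, 3.57, 3.77 and 4.38 against 13.7, 19.5, 24.7 and 12.2 CPM (log2 fold change -2.29, SE 0.33, adjusted p = 0.000133). Col17a1, a transmembrane collagen of hemidesmosomes, was lower (log2 fold change -1.53, adjusted p = 0.000569). The type IV collagen genes Col4a5 and Col4a6, neighbours on the X chromosome, were higher: Col4a6 stood at 167, 233, 230.2 and 222 against 42.4, 50, 51.8 and 89.9 CPM (log2 fold change 1.86, SE 0.24, adjusted p = 6.75e-05) and Col4a5 at 265 ± 36.6 against 114 ± 25.7 CPM (log2 fold change 1.21, adjusted p = 2.48e-05). Col4a1, of the chain pair found in most basement membranes, was not called (0.31). In mesenchyme Col4a5 and Col4a6 differed the opposite way, at -2.24 and -3.47 on the log2 scale.

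A receptor and its ligand moved apart. Itga8, a subunit of the integrin that binds nephronectin, stood at 115, 80.4, 72.8 and 125 CPM in the parotid and 18.9, 10.3, 10.7 and 28.7 CPM in the submandibular libraries (log2 fold change 2.51, SE 0.28, adjusted p = 1.62e-05). Npnt, the gene of nephronectin, stood at 27.1, 38.5, 28.8 and 38.2 against 91.4, 98.9, 145 and 95.7 CPM (log2 fold change -1.70, SE 0.33, adjusted p = 0.00222). Sulf1, which removes sulfate from heparan sulfate outside the cell, stood at 1.1, 3.38, 3.54 and 4.82 against 111, 114, 186 and 49.2 CPM (log2 fold change -5.17, SE 0.69, adjusted p = 0.000155). Of 32 genes of heparan sulfate enzymes, syndecans and glypicans 1 was higher and 3 were lower. Over all genes 11.2% were higher and 9.72% lower, so the share of lower members was near that of all genes.

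Genes of matrix proteases and their inhibitors were higher in 14 and lower in 4 of 33, with a median of 0.39. Adamts1, a protease that cuts versican, stood at 75.4, 46.9, 80.2 and 78.9 CPM in the parotid and 21.1, 11.8, 20.2 and 20.4 CPM in the submandibular libraries (log2 fold change 1.94, SE 0.20, adjusted p = 7.79e-06). Adamts1 was more abundant in mesenchyme, at 979 and 966 CPM in parotid and submandibular gland. Vcan, the gene of versican, was at 418 ± 86.2 against 196 ± 35.6 CPM and Smoc2, a calcium-binding matrix protein, at 939.6 ± 204 against 327 ± 150.4 CPM, both among the 10 genes with the largest rise in mean of those higher by 2-fold or more. Of the 14 protease and inhibitor genes 3 were at least as abundant in parotid epithelium as in parotid mesenchyme. The same held for 3 of the 11 basement membrane genes. The part of mesenchymal RNA in these counts was not tested.

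Guidance genes, which steer axons and also epithelial and vessel growth, were higher in 15 and lower in 8 of 65, with a median of 0.20. Over all genes 11.2% were higher and 9.72% lower, so the share of lower members was near that of all genes. Plxna4, a semaphorin receptor, was at 27.9, 31.4, 30.8 and 30.9 CPM in parotid and 3.77, 5.97, 3.61 and 13.9 CPM in submandibular replicates 1 to 4 (log2 fold change 2.14, SE 0.48, adjusted p = 0.0054). The netrin gene Ntn1 was at 45.8, 64.3, 53.4 and 42.8 against 14.1, 13.6, 34.5 and 10.8 CPM (log2 fold change 1.50, adjusted p = 0.00774), with submandibular replicate 3 the highest of its group. The netrin receptor gene Unc5d was at 1.4, 0.891, 2.31 and 1.25 against 11.8, 13.2, 14.2 and 12.4 CPM (log2 fold change -3.13, SE 0.25, adjusted p = 3.54e-07).

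Imprinted genes, which are read from the chromosome of 1 parent and many of which govern growth, were lower in 18 and higher in 6 of 33, with a median of -0.48. Dlk1, Meg3, Rian and Mirg belong to 1 imprinted domain on chromosome 12 and all were lower. Dlk1, read from the paternal copy, stood at 46.8, 44.8, 105 and 72.5 CPM in parotid and 365, 464, 867 and 1579 CPM in submandibular replicates 1 to 4 (log2 fold change -3.61, SE 0.41, adjusted p = 4.01e-05). Meg3, a non-coding RNA read from the maternal copy, stood at 130.1, 144, 115 and 126 against 459, 398, 246 and 536 CPM (log2 fold change -1.67, SE 0.18, adjusted p = 1.19e-05). Rian stood at 11.5, 13.9, 13.7 and 16.2 against 70.9, 57.6, 42.3 and 66.4 CPM (log2 fold change -2.10, SE 0.17, adjusted p = 4.26e-07). The glands did not overlap for any of them. In mesenchyme none of the 4 was called between the glands, with Dlk1 at 2332 CPM in the parotid and 2436 CPM in the submandibular gland. Of the 18 lower genes 3 were at least as abundant in submandibular epithelium as in submandibular mesenchyme. Igf2, the growth factor gene of another domain, was lower by less than 2-fold (log2 fold change -0.77, adjusted p = 0.00135). H19 was lower by less than 2-fold too (log2 fold change -0.58, adjusted p = 0.0188), a call lost without parotid replicate 3 or 4 or submandibular replicate 1 or 3 (adjusted p = 0.0547 to 0.0716). Magel2 was higher, at 17.2, 18.1, 16.7 and 20.4 against 2.66, 2.14, 2.07 and 4.77 CPM (log2 fold change 2.62, SE 0.21, adjusted p = 4.05e-07).

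**Figure D4:**
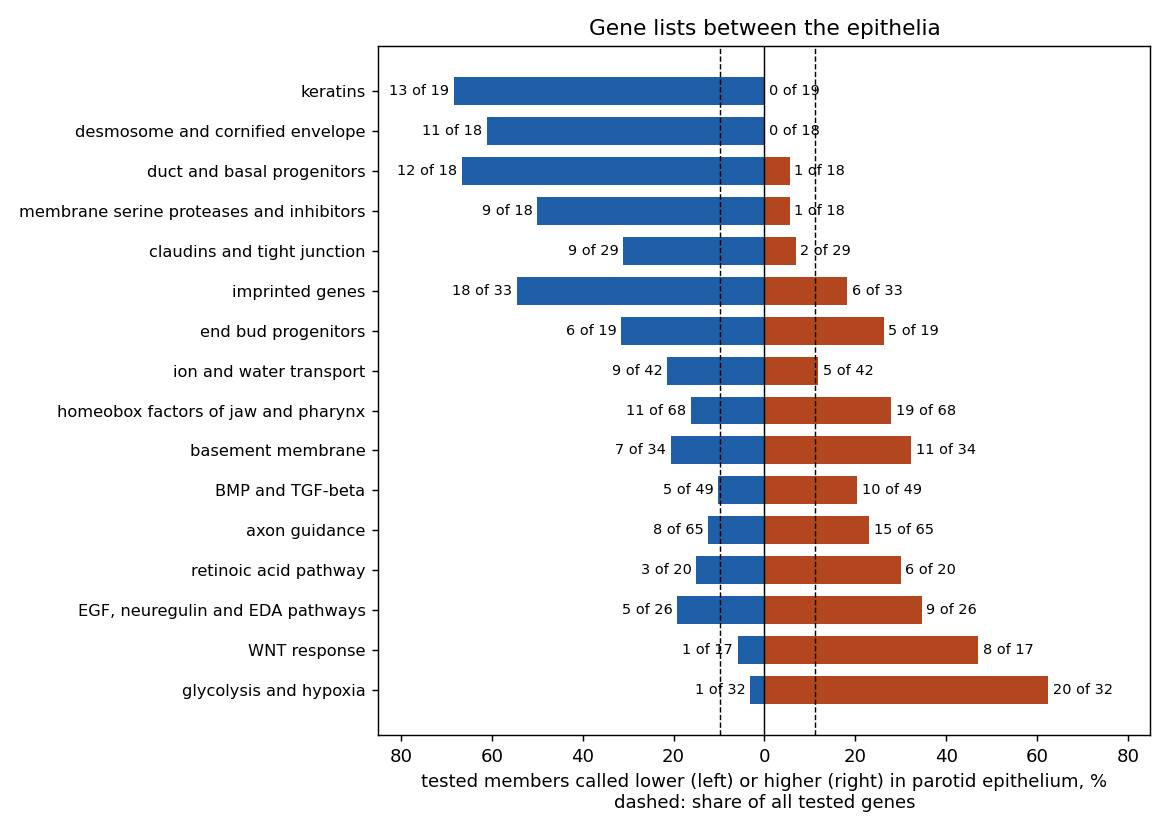
Share of the tested members of 16 gene lists called higher (bars to the right) and lower (bars to the left) in parotid epithelium, in percent, with the counts and the number tested beside each list; dashed lines mark the shares over all tested genes, 11.2% higher and 9.72% lower. Keratins, desmosome and cornified envelope genes and duct genes extend to the left, and glycolysis and hypoxia genes and WNT response genes to the right.

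Many genes of glucose use were higher and many genes of protein synthesis and respiration lower in parotid epithelium. Of 32 glycolysis and hypoxia genes 20 were higher, 6 of them by 2-fold or more, and 1 was lower, with a median of 0.61. The lower one was Adm (log2 fold change -2.45), described among the peptide genes above. Slc2a3, a glucose transporter, stood at 14.8, 20.2, 11.2 and 13.2 CPM in the parotid and 3.06, 2.9, 7.48 and 1.98 CPM in the submandibular libraries (log2 fold change 1.97, SE 0.30, adjusted p = 0.00021). Slc16a3, the lactate exporter, stood at 133, 187, 168 and 113 against 39.3, 57.3, 93.2 and 50.5 CPM (log2 fold change 1.32, SE 0.26, adjusted p = 0.00218). Pfkp, an isoform of the enzyme that commits glucose to glycolysis, was at 11.2 ± 2.22 against 3.87 ± 1.17 CPM (log2 fold change 1.55, adjusted p = 0.000133). Late enzymes changed by less: Eno1 was at 2193 ± 67.4 against 1388 ± 195 CPM (log2 fold change 0.66, adjusted p = 0.001) and Ldha at 2743 ± 372 against 1909 ± 261 CPM (log2 fold change 0.52, adjusted p = 0.00908). The main glucose transporter gene of the tissue, Slc2a1, was not called (0.31).

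Of 78 cytosolic ribosomal protein genes 43 were lower and 2 higher, with a median of -0.34, and none was lower by 2-fold. Rpl41 was at 322 ± 28.1 against 479.6 ± 67.9 CPM (log2 fold change -0.58, adjusted p = 0.0035) and Rps29 at 273 ± 22.4 against 399.8 ± 58 CPM (log2 fold change -0.55, adjusted p = 0.00356). Nuclear genes of the respiratory chain were lower in 29 and higher in 1 of 75, with a median of -0.23, as were 9 of 10 mitochondrially encoded genes, with a median of -0.93. These genes are short, with median exon lengths of 1775 and 1675 bases on the ribosomal and the nuclear respiratory list beside 4453 bases over protein-coding genes. Length moved with the result: the median log2 fold change was -0.22 over 300 protein-coding genes with exons under 1 kb, -0.06 over 1567 genes of 1 to 2 kb and 0.04 to 0.07 in the longer classes. Over 423 other protein-coding genes with exons under 2 kb and a mean of at least 50 CPM it was -0.09. The part of transcript length was not tested. The ribosomal count fell to 12 without submandibular replicate 1, to 16, 26 and 27 without parotid replicates 3, 4 and 2 and to 0 without submandibular replicates 1 and 3. The respiratory count fell to 0 without that pair of libraries, to 13 without submandibular replicate 1, to 16 without parotid replicate 2 and to 19 without parotid replicate 3 or 4.

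**Figure D5:**
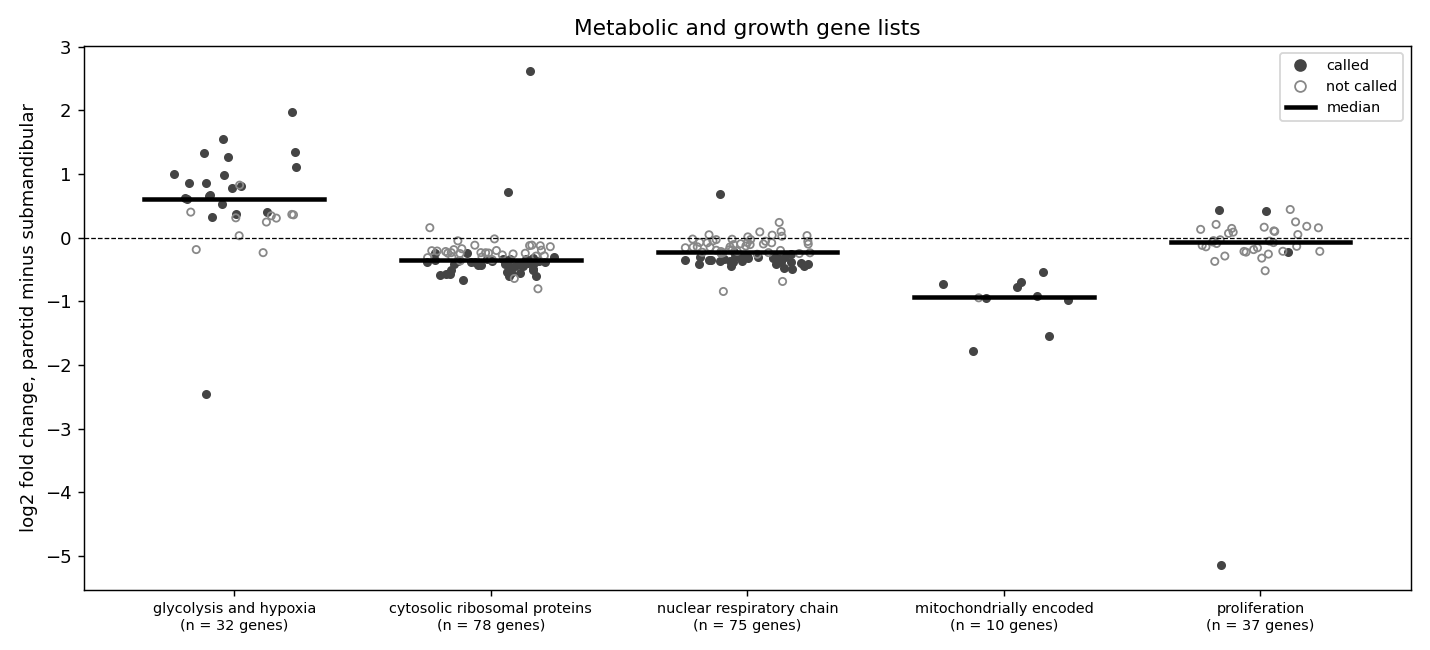
Log2 fold change, parotid minus submandibular epithelium, of each tested member of 5 gene lists; filled points are called genes and open points genes not called, a black bar marks the median of a list and the dashed line 0. Medians lie at 0.61 for glycolysis and hypoxia, -0.34 for cytosolic ribosomal proteins, -0.23 for the nuclear respiratory chain, -0.93 for mitochondrially encoded genes and -0.07 for proliferation.

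Proliferation genes were nearly level, with 2 higher and 2 lower of 37, beside 11.2% and 9.72% of all genes, and a median of -0.07. Mki67, a marker of cycling cells, was at 202 ± 47 against 230.3 ± 28.5 CPM and Top2a, an enzyme of chromosome separation, at 604 ± 102 against 702 ± 76.1 CPM, neither called. Of 24 cholesterol synthesis genes 2 were lower and none higher. Over all genes 11.2% were higher and 9.72% lower, so the share of lower cholesterol genes was near that of all genes. A gene that misses the threshold is not shown to be equal in the glands.

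The mesenchyme of the glands differed in more genes, 6282 of 18191 (34.5%). Of the 2033 genes higher in parotid epithelium, 843 (41.5%) were also called higher in parotid mesenchyme and 198 (9.74%) lower. Of the 1768 lower genes 378 (21.4%) were called lower there too and 284 (16.1%) higher. Over all tested genes 22.1% were called in mesenchyme in the direction of their epithelial difference and 12.4% in the opposite one. The 21.4% was thus near the share of all genes. An unequal gland difference in epithelium and mesenchyme was called for 3799 genes (20.9%), which included 747 of the 2033 and 795 of the 1768. Among the genes described, Lifr, Mllt3, a gene of a transcription elongation complex, and Sesn1, a stress-response gene, were called in the same direction in both layers. Mllt3 was at 400.4, 337, 288 and 326 CPM in the parotid and 133, 124, 105 and 132 CPM in the submandibular libraries (log2 fold change 1.45, SE 0.13, adjusted p = 8.7e-07), with a log2 fold change of 1.65 in mesenchyme. Sesn1 was at 94.4, 73.8, 88.7 and 75.9 against 353, 341, 326 and 272 CPM (log2 fold change -1.96, SE 0.11, adjusted p = 5.36e-09), with -1.68 in mesenchyme.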

How the data were processed

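RNA from the 4 parotid and 4 submandibular epithelial samples was made into full-length cDNA (SMART-Seq v4) and tagmented (Nextera XT), per the labels' protocols. STAR 2.5.2a, edgeR and the build GRCm38 (mm10) are named in the submitters' processing notes; for the read counter, and for the annotation, the sources used here give no name. The counts are the authors' deposited whole numbers for 48709 gene features and 92 spike-in features, which were left out. The authors' deposited scaled signal (CPM) was recomputed from them to within a relative difference of 4.98e-15.

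Library totals scaled by TMM gave CPM. filterByExpr kept 18191 genes with at least 99.88% of the counts. One model of 16 libraries and 4 groups was fitted by the robust quasi-likelihood method of edgeR 4.0.16 (R 4.3.3), with Benjamini-Hochberg adjustment over all tested genes and a threshold of 0.05. SE is the size of the log2 fold change divided by the square root of F. The test was tested on simulated data. Means are given ± SD over 4 libraries. Named genes had at least 10 CPM in the higher epithelium and libraries that did not overlap (the largest log2 fold changes), the largest differences in mean CPM at 2-fold, or a place among up to 6 called members a direction of a list; members not called may be named, and the called genes Col4a5, Dsc2, Dsp, Eno1, H19, Irx2, Irx5, Ldha, Nfkbia, Nog, Ntn1, Rnf43, Rps29 and Sfn, past these limits, were named with their values known. The comparison, gene lists and rules were chosen with earlier results of these data known. Alternatives were other scalings, filters and tools (DESeq2 1.42.0, limma-voom of limma 3.58.1), the epithelial libraries alone, a replicate block, libraries left out, and genes at least at the level of their own mesenchyme. Promoters are RefSeq's (GRCm38.p6), gene positions GENCODE's.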

Additional observations from a re-analysis of the deposited data

Results flagged for a closer look

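A library far from the other 3 of its group, by Dixon's test at its 95% limit, was found for 18 of 294 groups of 4 values; chance alone gives about 1 in 20. Of the 18, 9 were submandibular replicate 3 lying high, for Dsp (199 CPM), Klf5 (157), Krt7 (41.2), Lgr5 (6.68), Npnt (145), Ntn1 (34.5), Ppl (45.6), Sox2 (20.4) and Tbx2 (5.68). In submandibular replicate 4 Isl2 (43.9 CPM) and Lifr (61.8) lay high, and in submandibular replicate 1 Rpl41 (581). Parotid replicate 2 lay low for Adamts1 (46.9 CPM), Nfkbia (165) and Tnfrsf19 (325), and parotid replicate 4 high for Foxe1 (1.3). Adamts1 in submandibular replicate 2 lay low as well (11.8 CPM), and so did Eya2 in submandibular replicate 1 (137 CPM).

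The gland difference was not the same in epithelium as in mesenchyme for 96 of the 152 genes named. These are calls of edgeR's test of the difference itself at an adjusted p under 0.05. Over all 18191 genes 3799 (20.9%) were called so. Many named genes were picked for large differences in epithelium, so the 20.9% is not a like share. Of the genes called at 2-fold in epithelium, 50.6% of the higher and 48.8% of the lower ones were. Values are the log2 gland difference (parotid minus submandibular) in epithelium minus that in mesenchyme. For 31 genes the layers were called in opposite directions. Lower in parotid epithelium and higher in parotid mesenchyme were Anxa1 (-3.32), Anxa2 (-2.88), Areg (-13.10), Dsc2 (-4.92), Dsc3 (-8.17), Ereg (-7.54), Fgf9 (-2.69), Fgfr3 (-5.75), Grhl3 (-4.79), Hes1 (-1.55), Hspb1 (-4.93), Id3 (-3.03), Kitl (-2.74), Krt7 (-5.42), Krt80 (-7.77), Lama3 (-5.28), Npnt (-3.58), Slc12a2 (-2.13), Sostdc1 (-4.61) and Wnt4 (-4.55). Higher in parotid epithelium and lower in parotid mesenchyme were Col4a5 (3.46), Col4a6 (5.33), Edar (4.52), Edn3 (4.07), Foxp2 (3.20), Gli3 (1.80), Lmo2 (3.65), Ptger3 (4.40), Pthlh (4.76), Rdh10 (4.06) and Slc2a3 (3.73). In the mesenchyme Dsc3 had a mean of 3.62 CPM in the parotid and 0.133 CPM in the submandibular gland, and Krt7 of 0.521 and 0.0655 CPM.

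For 15 genes both layers were called in the same direction by unequal amounts: Aldh1a1 (2.95), Barx1 (-4.40), Bmp2 (2.12), Eno1 (-0.63), Foxa1 (-5.92), Irx5 (-2.14), Itga8 (1.56), Ldha (-1.10), Lifr (0.61), Magel2 (0.93), Ntn1 (-2.40), Smoc2 (-2.12), Sox9 (-3.46), Tbx2 (3.08) and Unc5d (1.42). Sox9, a factor of end buds and of cartilage precursors, stood in the mesenchyme at a mean of 155 CPM in the parotid and 9.45 CPM in the submandibular gland. Called in epithelium and not in mesenchyme, and lower in parotid epithelium, were Adm (-2.73), Aqp3 (-5.23), Bmp4 (-2.63), Cldn10 (-5.03), Cldn23 (-4.47), Cldn7 (-1.65), Dkk1 (-6.96), Dlk1 (-3.55), Gabrp (-11.36), Id1 (-4.13), Igf2 (-0.91), Isl1 (-6.22), Isl2 (-3.38), Kit (-1.30), Klf5 (-1.53), Krt6a (-6.45), Meg3 (-1.48), Mirg (-2.17), Ovol1 (-3.44), Pkp1 (-5.05), Ppl (-2.33), Rian (-1.88), Rpl41 (-0.64), Rps29 (-0.51), Sfn (-3.40), Sulf1 (-5.98), Tbx3 (-5.10), Tlx1 (-10.46), Usp18 (-3.77), Wfdc2 (-3.26) and Wnt7b (-4.68). Higher in parotid epithelium were Adamts1 (1.92), Ets1 (1.89), Eya2 (1.47), Gata2 (6.42), Ltb (3.53), Nalcn (3.48), Nfkbia (0.95), Nrtn (1.10), Phlda1 (1.82), Plxna4 (3.38), Relb (0.96), Tcf7 (1.34), Tgfa (2.53) and Vcan (1.04). Called in mesenchyme and not in epithelium were Bmp7 (3.09), Dusp6 (-1.05), Fgfr2 (0.99), Jup (-1.07) and Lef1 (-1.51). For Dkk1, Gabrp, Tlx1, Areg and Aldh1a1 a group held 3 counts or fewer in all, so the size of the value depends on edgeR's prior count.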

How the results depend on the processing

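None of the 2733 checks of the 152 named genes under an alternative reversed a direction; 2648 kept direction and call, 74 lost the call and 11 gained one (for Col4a1, Dsg2, Ehf, Fgfr2, Krt17, Krt8, Pax9 and Slc2a1). With 1 library left out the calls of Cldn1, Dsp, Fos, H19, Igfbp5, Sox9 and Wnt4 were lost, and 21 genes lost theirs under at least 1 alternative. The cause of changed counts was not tested, except that fewer libraries or genes enter some alternatives. With 1 library left out the genes called ranged from 2452 to 4540 (3801 in all libraries), those higher from 1339 to 2705 and those lower from 1113 to 1835. These 3 counts were lowest without submandibular replicate 1. By the same step higher end bud genes ranged from 2 to 5, higher transport genes from 3 to 5, lower EGF and EDA pathway genes from 3 to 5, lower ribosomal protein genes from 12 to 43, lower respiratory chain genes from 13 to 38 and higher mesenchymal identity genes, 8 of 21 in all libraries, from 3 to 13.

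Leaving out submandibular replicates 1 and 3 together, a choice made after seeing the data, left 1655 genes called (1550 of them among the 3801), 960 higher and 695 lower, with 512 lower at 2-fold. It left 4 higher and 2 lower genes of the EGF and EDA pathways, 5 higher WNT response genes, 5 lower guidance genes and 7 lower homeobox genes. Left too were 1 higher end bud gene, 3 higher transport genes, 6 higher matrix protease and inhibitor genes and 4 higher mesenchymal identity genes. Of the lower ribosomal protein and the lower respiratory chain genes 0 remained. Among genes at least at the level of their own mesenchyme 2169 were called, 1008 higher and 1161 lower, 279 and 550 of them at 2-fold. List counts there were 10 higher homeobox, 4 higher BMP and TGF-beta, 3 higher basement membrane, and 4 higher and 3 lower guidance genes. Imprinted genes numbered 2 higher and 3 lower, and matrix protease and inhibitor genes 3 higher and 1 lower. Retinoic acid genes numbered 3 higher and 1 lower, with 0 higher macrophage and 0 higher mesenchymal identity genes. The 8 epithelial libraries alone gave 3 higher transport, 2 higher mesenchymal identity and 16 lower respiratory chain genes. Without the filter 18 respiratory chain genes were lower and 5 mesenchymal identity genes higher, and limma-voom called 8 higher end bud genes.

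Replicate numbers are shared by the glands. The deviations of same-numbered libraries correlated at 0.157, 0.0723, 0.0266 and 0.0196, and those of other pairs at -0.121 to 0.081. Not every library correlated best with the library of its own number. With 4 libraries a gland these values cannot decide whether same-numbered libraries share more than a number. With the replicate block 3980 genes were called, 3556 of them among the 3801. With 4 libraries a group, changes of genes with few counts may not be detectable at this depth.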

Other observations

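Lists of stress and interferon response genes did not all lean one way. Of 22 immediate early and heat shock genes 6 were lower and 1 higher, with a median log2 fold change of -0.78 beside -0.00161 over all genes. Hspb1, a small heat shock protein, stood at 4.07, 4.27, 3.63 and 4 CPM in the parotid and 26.9, 21.1, 51.9 and 24.5 CPM in the submandibular replicates 1 to 4 (log2 fold change -2.96, SE 0.29, adjusted p = 3.27e-06). The immediate early gene Fos stood at 99.4, 39.7, 190.3 and 246 against 417, 226, 327 and 632 CPM (log2 fold change -1.48, adjusted p = 0.0279), and the libraries of the glands overlapped. Its call was lost without parotid replicate 1 or submandibular replicate 1 or 4 (adjusted p = 0.0644 to 0.0796). Of 24 interferon response genes 6 were lower and none higher, with a median of -0.24. Of 30 genes of the amino acid and ER stress response 7 were higher and 1 lower, with a median of 0.15. Over all genes 11.2% were higher and 9.72% lower. Usp18 and Ifit1, interferon-induced genes, were at 0.287 ± 0.201 against 4 ± 1.08 and 0.128 ± 0.17 against 3.79 ± 2.21 CPM.

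Hedgehog pathway genes were higher in 4 and lower in 1 of 16, where 11.2% and 9.72% of all genes were. Each of the 4 was higher by less than 2-fold. Gas1, a coreceptor, stood at 129, 119.9, 170.2 and 122 against 71.4, 75.9, 88.9 and 67.5 CPM (log2 fold change 0.83, SE 0.12, adjusted p = 0.000148), and Gli3, a factor of the pathway, at 103 ± 16.9 against 59.2 ± 14.3 CPM (log2 fold change 0.80, adjusted p = 0.00163). In mesenchyme their means were 556 and 435 CPM for Gas1 and 78.8 and 157 CPM for Gli3 in the parotid and the submandibular gland. Notch pathway genes were higher in 4 and lower in 4 of 23, beside 11.2% and 9.72% of all genes. The target gene Hes1 was among the lower ones (log2 fold change -0.74, adjusted p = 0.00114). Among genes called at 2-fold or more with the largest differences in mean CPM, Igfbp5, which binds insulin-like growth factors, was lower at 553 ± 139 against 1189.5 ± 257 CPM (log2 fold change -1.11, adjusted p = 0.0425), a call lost without any 1 of the 8 epithelial libraries (adjusted p = 0.0515 to 0.107). Eya2, a transcription coactivator, was higher at 365 ± 48.9 against 165 ± 18.6 CPM (log2 fold change 1.15, adjusted p = 0.00455).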
